A study of Mus musculus with 6 samples.

Results

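A set of 33 gene names known from B cells was followed through every library of an RNA-seq study of mouse regulatory T cells. The names were chosen by symbol as B lineage genes. Faim3 and Fcmr are one gene, the receptor for the constant part of IgM, so the set held 32 genes, all of them found among the 24424 genes of the deposited count table and among the 23393 genes of the deposited normalized table. The study asked what loss of Bcl11b, a zinc finger transcription factor of T cells, does to gene expression in regulatory T cells, a suppressive class of CD4 T cells marked by Foxp3. These cells had been sorted from the spleen and peripheral lymph nodes. WT libraries carried the strain label Bcl11bF/F with no Cre named, at steady state. KO libraries carried the strain label Bcl11bF/WT Foxp3YFP-Cre +/- with the genotype label KO, at steady state, and KO EAE libraries had that same strain label. EAE usually denotes experimental autoimmune encephalomyelitis, an induced inflammatory disease of the mouse nervous system. Each group had 2 libraries, 6 in all, and no WT library with EAE is in the study as analysed here. The strain label of both KO groups thus names 1 wild-type allele (Bcl11bF/WT) beside a genotype label of KO, and Cre is driven by Foxp3, so it is directed to regulatory T cells. The sources used here give neither age nor the number of animals per library, and no label says that replicates were separate animals, so p-values measure the spread between these libraries, which may be technical.

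B cells recognise antigen through a membrane antibody that signals through the partner chains CD79A and CD79B. Src-family kinases such as LYN and BLK phosphorylate those chains, SYK and BTK carry the signal on, and the adaptor BLNK holds them together, while receptors such as CD22 and CD72 restrain it. PAX5 and EBF1 set and hold B lineage identity, and regulatory T cells are not known for using this programme. Several of the 32 genes are also used by macrophages or dendritic cells, and 14 were set apart for that reason (Spib, Blnk, Btk, Cd37, Tnfrsf13b, Pou2f2, Lyn, Bcl11a, Cd180, Cd40, Cd24a, Ly6d, Mef2c and Swap70), which left 18 outside that list.

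Sequences near a transcript start are shown for the members where they held a binding word of a factor that is itself in the set. The words searched on both strands were ATGCAAAT, the octamer bound by OCT2 (Pou2f2) with its B cell co-activator OBF1 (Pou2af1), the EBF1 palindrome, which is TCCC, any 2 bases and GGGA, and GAGGAAGT, an Ets word of the kind SPIB binds. RefSeq promoter windows (GRCm38.p6, 250 bases before to 50 after a transcript start) were at hand for 25 of the 32 genes, and Cd79b, Ms4a1, Blk, Lyn, Cd40, Cd24a and Ly6d had none. The sites found follow, 5′ to 3′ on the gene's strand, with the matched word in capitals. The octamer was in Blnk (chr19:40994334-40994361, minus strand, 130 bases before the start) and Vpreb3 (chr10:75948245-75948272, plus strand, 45 bases before), the EBF1 palindrome in Cd22 (chr7:30879058-30879087, minus strand, 49 bases before), and the Ets word in Cd72 (chr4:43454658-43454685, minus strand, 49 bases before), Cd37 (chr7:45238847-45238874, minus strand, 25 bases before) and Fcrl1 (chr3:87376362-87376386, plus strand, 15 bases before). Distances are from the RefSeq transcript start. In GENCODE M21 the sites of Cd72 and Fcrl1 lie before the gene, while those of Blnk, Cd22, Cd37 and Vpreb3 lie inside it, and in Blnk all 250 bases before the RefSeq start are annotated as exon.
Blnk: actggaagggATTTGCATgcccaataag
Vpreb3: cagtgggctgATTTGCATgctctattgt
Cd22: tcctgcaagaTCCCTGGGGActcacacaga
Cd72: ccaaagacctACTTCCTCttttatgact
Cd37: cccccccggaACTTCCTCtttctctgcc
Fcrl1: tccgaccacgACTTCCTCaaacctc
The octamer was held by 1.74% of all 32851 windows of this length, the EBF1 palindrome by 0.904% and the Ets word by 3.2%. A match is a description of these letters only.

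The count table held between 14663542 and 16904312 reads per library, and 3 reads, taken as the floor, equalled 0.170 to 0.205 CPM (counts-per-million after TMM scaling). Bcl11b itself stood at 420 and 425 CPM in WT, 371 and 370 in KO and 404 and 278 in KO EAE, a KO minus WT log2 difference of -0.19 ± 0.17 (SE, adjusted p = 0.527, edgeR). All 4 libraries of the KO and KO EAE labels lay below both WT libraries, but the KO minus WT difference did not pass the test. In the normalized table it stood at 10518 and 11371 in WT against 6746 and 5211 in KO. The sources used here do not say which part of the gene the floxed allele removes. Below, KO stands for the libraries so labelled. T cell markers were present throughout: Cd3e was at 141 to 150 CPM and Cd4 at 278 to 315 CPM in all 6 libraries. Foxp3 was at 206 and 211 CPM in WT and at 149 to 165 CPM in the KO and KO EAE libraries.

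In the count table, B cell genes split into a few with a large rise in KO, many that were scarce and uneven between replicates, and some at a steady level across the libraries. All 32 passed the filter on low counts. Against WT, 7 of the 32 were called higher in KO and 2 lower (edgeR quasi-likelihood test, Benjamini-Hochberg adjusted p under 0.05 over 14548 genes), while 9.41% of all genes tested were called higher and 3.46% lower. The genes called higher were Lyn, Blnk, Btk and Bank1 of the receptor pathway, Cd180 and Cd22 of the surface, and Pou2af1 of the transcription factors, and those called lower were Swap70 and Cd72. The median KO minus WT log2 difference of the 32 was 1.54, and that of all genes tested was -0.01. Without KO replicate 2 the members' median was 0.775. Both KO libraries lay above both WT libraries for 21 members and below both for 5, but 14 of those 21 did not pass the test. How many of all genes tested separated in this way was not counted, so the 21 and 5 are a description only. DESeq2 on the same counts called 17 members, 15 of them higher, and the 8 it added were Ms4a1, Fcrla, Cr2, Fcrl1, Blk, Spib, Bcl11a and Mef2c. Over all genes DESeq2 called 2425, where edgeR called 1873. In bulk RNA, fewer or more cells of a type and less or more RNA per cell cannot be told apart.

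Of the 18 members outside the list shared with macrophages and dendritic cells, 3 were called higher (Bank1, Cd22 and Pou2af1) and 1 lower (Cd72), with a median log2 difference of 1.54. Of the 14 shared with those cells, 4 were called higher (Lyn, Blnk, Btk and Cd180) and 1 lower (Swap70), with a median of 1.81. Markers of macrophages and monocytes moved in the same comparison: 18 of 19 were called higher in KO, with a median log2 difference of 3.53, and their summed level was 320 and 340 CPM in WT, 2231 and 2664 in KO, and 1912 and 2271 in KO EAE. Dendritic cell markers summed to 9.95 and 13.2 CPM in WT, 117 and 161 in KO, and 76.0 and 95 in KO EAE, with 5 of 9 called higher in KO. No marker of either list was at 0 in all libraries. Their part in the changes of the B cell genes was not tested.

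**Figure D1:**
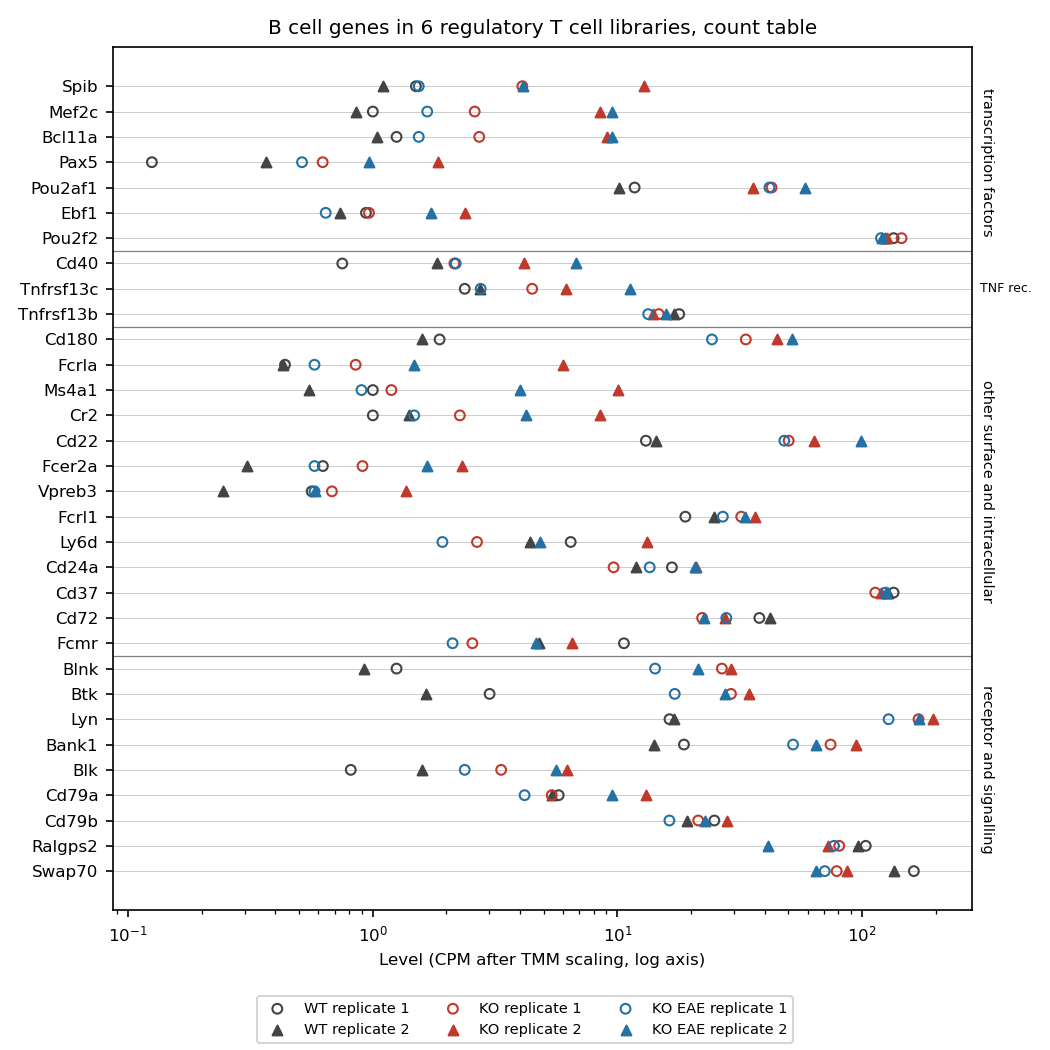
Level of each of the 32 B cell genes in the 6 libraries of the count table, in CPM on a log axis, grouped by role (TNF rec., TNF receptors), with open circles for replicate 1 and triangles for replicate 2. Blnk, Btk, Lyn, Cd180, Bank1, Cd22 and Pou2af1 lie to the right of WT in all 4 KO and KO EAE libraries, while Ms4a1, Fcrla, Cr2, Spib, Bcl11a and Mef2c are spread between the replicates of KO and of KO EAE.

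Among receptor and signalling genes, 4 of 9 were called higher and 1 lower, against 9.41% and 3.46% of all genes tested. Lyn, the kinase that phosphorylates CD79 chains and also inhibitory receptors, stood at 16.3 and 17 CPM in WT, 170 and 194 in KO, and 128 and 170 in KO EAE. Both WT libraries were far below the other 4, and the KO minus WT log2 difference was 3.45 ± 0.16 (SE, adjusted p = 9.43e-05). Blnk, the adaptor of the B cell receptor, stood at 1.25 and 0.919 CPM in WT, 26.7 and 29.1 in KO, and 14.3 and 21.3 in KO EAE. Its libraries did not overlap between WT and KO, and its log2 difference of 4.68 ± 0.31 was the largest of the 32 (adjusted p = 0.000279). Btk, the Tec-family kinase that activates phospholipase C, stood at 3.0 and 1.65 CPM in WT, 29.1 and 34.7 in KO, and 17.2 and 27.6 in KO EAE, with a KO minus WT log2 difference of 3.77 ± 0.37 (adjusted p = 0.00154). Bank1, a scaffold of B cell receptor signalling, stood at 18.7 and 14.1 CPM in WT, 74.4 and 94.2 in KO, and 52.2 and 65.0 in KO EAE. Its log2 difference was 2.36 ± 0.20 (adjusted p = 0.000833), and WT was lowest here too. Lyn shares 6.09% of its exon bases with a noncoding gene on the other strand, Cd22 9.5% and Swap70 4.88%. The genes Lyn, Blnk, Btk and Bank1 kept their call in all 10 alternatives tried, the removal of each WT and KO library included.

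The signalling chains themselves did not follow that pattern. Cd79a stood at 5.76 and 5.39 CPM in WT, 5.39 and 13.1 in KO, and 4.18 and 9.51 in KO EAE, a KO minus WT log2 difference of 0.73 ± 0.54 (adjusted p = 0.433). Cd79b stood at 24.9 and 19.3 CPM in WT, 21.4 and 28.2 in KO, and 16.3 and 22.8 in KO EAE, a difference of 0.17 ± 0.24 (adjusted p = 0.699). WT and KO libraries overlapped for both chains. Blk, the other Src-family kinase in the set, was at 0.813 and 1.59 CPM in WT, 3.35 and 6.21 in KO, and 2.38 and 5.59 in KO EAE, and its log2 difference of 1.98 ± 0.60 missed the threshold (adjusted p = 0.0885). Swap70, a guanine nucleotide exchange factor for Rac, went the other way: it fell from 163 and 135 CPM in WT to 78.8 and 86.5 in KO, and stood at 70.4 and 64.9 in KO EAE. Its log2 difference was -0.85 ± 0.11 (adjusted p = 0.00531), with both WT libraries above all others, and without KO replicate 1 its adjusted p was 0.0646. Ralgps2, an exchange factor for Ral, stood at 104 and 96.0 CPM in WT, 80.7 and 72.9 in KO, and 76.8 and 41.1 in KO EAE (KO minus WT log2 difference -0.38 ± 0.27, adjusted p = 0.407).

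Among the 13 surface and intracellular receptors and markers, 2 were called higher and 1 lower. Over all genes tested the shares were 9.41% and 3.46%, so these counts do not set the surface genes apart. Cd180, a Toll-like receptor homologue of B cells, macrophages and dendritic cells, stood at 1.88 and 1.59 CPM in WT, 33.5 and 44.8 in KO, and 24.3 and 51.7 in KO EAE. The groups WT and KO were widely separate, with a log2 difference of 4.49 ± 0.44 (adjusted p = 0.00146). Cd180 shares 4.04% of its exon bases with Mast4 on the other strand, and Mast4 had a log2 difference of -0.29 (adjusted p = 0.110). Cd22, the sialic acid-binding receptor that dampens B cell receptor signals, stood at 13.1 and 14.3 CPM in WT, 50.1 and 63.6 in KO, and 48.1 and 99.2 in KO EAE. Its log2 difference was 2.05 ± 0.35 (adjusted p = 0.0133). The call was lost on leaving out any single WT or KO library, with adjusted p between 0.0605 and 0.0942.

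Cd72, a receptor that restrains B cell signalling, was called lower. It stood at 38.0 and 42.2 CPM in WT, 22.2 and 27.4 in KO, and 27.9 and 22.5 in KO EAE, so both WT libraries were the highest. The KO minus WT log2 difference was -0.69 ± 0.17 (adjusted p = 0.0472), and it missed the threshold in 7 of 10 alternatives, with adjusted p up to 0.264 without KO replicate 1. Of the exon bases of Cd72, 41.6% (1423 bases) also belong to Tesk1, a kinase gene on the opposite strand. The sources used here do not state whether counting used strand, so reads of that stretch cannot be assigned to either gene and the Cd72 values are uncertain. For Tesk1 the WT libraries had 104 and 108 CPM and the KO libraries 103 and 92.5 (log2 difference -0.11, adjusted p = 0.531).

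The remaining surface members were not called by edgeR, while DESeq2 called Fcrl1 (adjusted p = 0.0166), Fcrla (0.0274), Ms4a1 (0.0369) and Cr2 (0.0387) higher. Ms4a1, which encodes CD20, the B cell antigen targeted by rituximab, stood at 1.0 and 0.551 CPM in WT, 1.19 and 10.03 in KO, and 0.899 and 3.98 in KO EAE. A single KO library thus carried the KO mean, and the log2 difference was 2.83 ± 1.16 (adjusted p = 0.175). Fcrla, an intracellular Fc receptor-like protein, was at 0.438 and 0.429 CPM in WT, 0.851 and 6.01 in KO, and 0.578 and 1.48 in KO EAE (difference 2.95 ± 1.01, adjusted p = 0.120). Cr2, the complement receptor of follicular and marginal zone B cells, was at 1.0 and 1.41 CPM in WT, 2.27 and 8.53 in KO, and 1.48 and 4.24 in KO EAE (difference 2.15 ± 0.79, adjusted p = 0.138). In each of these genes replicate 2 was the higher of the KO libraries and of the KO EAE libraries.

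Ly6d, a membrane marker of early B lineage commitment, stood at 6.44 and 4.41 CPM in WT, 2.67 and 13.2 in KO, and 1.93 and 4.82 in KO EAE, and overlapped between groups (difference 0.54 ± 0.77, adjusted p = 0.689). Cd24a, a heavily glycosylated anchor protein, was at 16.7 and 11.9 CPM in WT, 9.65 and 20.9 in KO, and 13.6 and 20.8 in KO EAE, again overlapping (0.09 ± 0.42, adjusted p = 0.909). Fcmr stood at 10.6 and 4.78 CPM in WT, 2.55 and 6.55 in KO, and 2.12 and 4.63 in KO EAE, a difference of -0.77 ± 0.63 (adjusted p = 0.482). Here the WT replicates differed as much as the groups. Fcrl1, an Fc receptor-like co-receptor, was at 19.0 and 24.8 CPM in WT, 32.1 and 36.6 in KO, and 27.0 and 33.2 in KO EAE (0.65 ± 0.19, adjusted p = 0.0759), with no overlap between WT and KO. Cd37, a tetraspanin of mature lymphocytes, was at 113 to 135 CPM in all 6 libraries (-0.17 ± 0.07, adjusted p = 0.180). Fcer2a, the low-affinity IgE receptor CD23, and Vpreb3, an endoplasmic reticulum protein of B lineage cells, stayed between 0.245 and 2.32 CPM in all libraries, with adjusted p of 0.193 and 0.207.

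None of the 3 TNF receptor family members passed the test (edgeR; 0 also at an unadjusted p under 0.05, and 0 with DESeq2). Tnfrsf13c, the BAFF receptor on which mature B cells depend, stood at 2.38 and 2.76 CPM in WT, 4.48 and 6.14 in KO, and 2.76 and 11.2 in KO EAE (KO minus WT 1.04 ± 0.64, adjusted p = 0.345). Tnfrsf13b, which encodes the BAFF and APRIL receptor TACI, was at 17.9 and 17 CPM in WT, 14.8 and 13.9 in KO, and 13.4 and 15.7 in KO EAE (-0.28 ± 0.17, adjusted p = 0.340). Cd40, the receptor for CD40 ligand on B cells and antigen-presenting cells, was at 0.751 and 1.84 CPM in WT, 2.16 and 4.16 in KO, and 2.18 and 6.75 in KO EAE (1.27 ± 0.72, adjusted p = 0.305).

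Of the 7 transcription factors, 1 was called higher, where 9.41% of all genes tested were, so this count does not set the factors apart. Pou2af1, the co-activator OBF1, stood at 11.8 and 10.1 CPM in WT, 42.7 and 35.7 in KO, and 41.8 and 58.4 in KO EAE. WT was lowest in both replicates, the log2 difference was 1.84 ± 0.20 (adjusted p = 0.00253), and the call held in 10 of 10 alternatives. Its partner Pou2f2 stood at 135 and 125 CPM in WT, 145 and 126 in KO, and 119 and 120 in KO EAE (0.07 ± 0.09, adjusted p = 0.672). Thus the co-activator rose while the factor it binds overlapped between WT and KO. Spib, an Ets factor of B cells and plasmacytoid dendritic cells, was at 1.5 and 1.10 CPM in WT, 4.09 and 12.8 in KO, and 1.54 and 4.11 in KO EAE (2.69 ± 0.72, adjusted p = 0.0631). Bcl11a, the B lineage relative of Bcl11b, was at 1.25 and 1.04 CPM in WT, 2.72 and 9.08 in KO, and 1.54 and 9.51 in KO EAE (2.35 ± 0.97, adjusted p = 0.178). Mef2c, a MADS-box factor of B cell responses and of myeloid cells, was at 1.0 and 0.857 CPM in WT, 2.61 and 8.53 in KO, and 1.67 and 9.51 in KO EAE (2.57 ± 0.96, adjusted p = 0.144).

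The factors that define the lineage were scarce everywhere. Pax5 was at 0.125 and 0.367 CPM in WT, from 2 and 6 reads, at 0.624 and 1.84 CPM in KO, and at 0.514 and 0.964 CPM in KO EAE. Its log2 difference was 2.26 ± 0.80 (adjusted p = 0.126). Ebf1 was at 0.938 and 0.735 CPM in WT, 0.965 and 2.39 in KO, and 0.642 and 1.74 in KO EAE (0.98 ± 0.66, adjusted p = 0.384). Neither factor passed the edgeR test, though with the replicate block Pax5 did (adjusted p = 0.0477), and Pax5 was the sole member under the floor of 3 reads in any library.

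Levels of different genes were set side by side per kilobase of exon (CPM per kb; exon lengths from GENCODE M21, mm10). In WT, Cd37 was at 38.2 and 36.1 CPM per kb, next to the T cell receptor chain Cd3e at 36.5 and 35.9, and Swap70 followed at 20.1 and 16.7. Cd79b stood at 17.4 and 13.5, Pou2f2 at 16.3 and 15.1, and Cd72 at 11.1 and 12.3 CPM per kb. Cd79b and Pou2f2 overlapped in their replicates, and both lay above Cd72 and below Cd37. At the low end were Ms4a1 at 0.162 and 0.0891 and Pax5 at 0.0141 and 0.0415 CPM per kb. In KO, Lyn moved from 4.01 and 4.18 to 41.8 and 47.7 CPM per kb, above Cd3e at 34.5 and 36.8, and Adgre1, the macrophage marker F4/80, moved from 6.92 and 5.79 to 65.7 and 81.0. In WT, 16 of the 32 members were under 5 CPM in both libraries, and 4 were under 5 CPM in all 6.

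**Figure D2:**
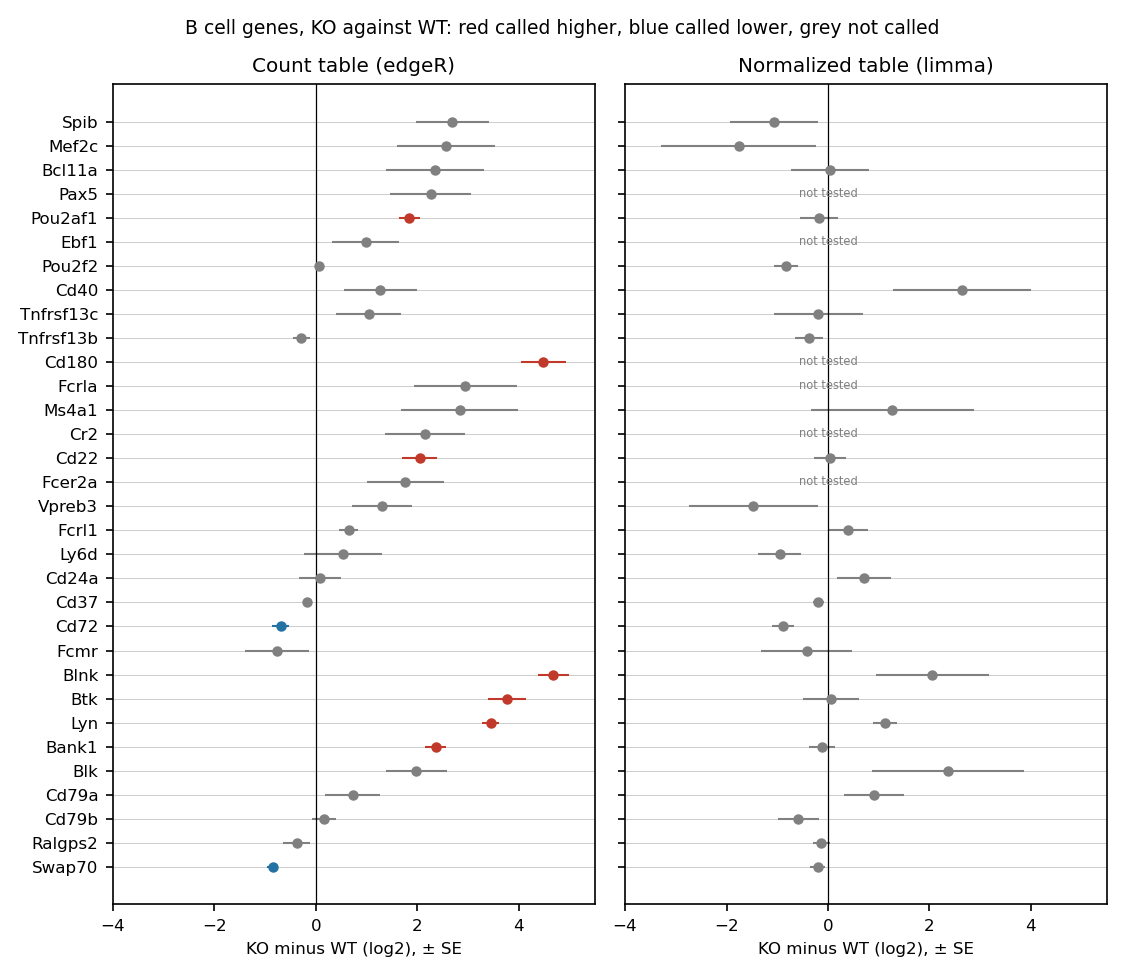
KO minus WT log2 difference of each B cell gene with its SE, from the count table (left, edgeR) and the normalized table (right, limma), where red marks genes called higher, blue lower, and grey not called. On the left 7 genes are red and 2 blue, on the right none is coloured and 6 were not tested.

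Replicates of KO, and those of KO EAE, differed in most of the B cell genes. The ratio of replicate 2 to replicate 1 in CPM, with an exact binomial 95% interval that covers counting error only, compares 2 libraries and not conditions. Over the 32 members its median was 1.61 for KO, 1.97 for KO EAE and 0.858 for WT, and over all genes tested it was 1.01, 0.992 and 0.997 in that order. In KO, 28 of 32 members were higher in replicate 2, with 25 intervals wholly above 1 and 3 below. Of all 14541 genes tested with reads in both KO libraries, 7765 were higher in replicate 2, with 3306 intervals above 1 and 2425 below. In KO EAE, 29 of 32 were higher in replicate 2, with 24 intervals above 1 and 2 below, while in WT 9 of 32 were higher. Of all such genes in KO EAE, 7054 of 14545 were higher in replicate 2, with 3402 intervals above 1 and 4119 below. In WT, 7082 of 14511 were higher. A ratio of at least 2 was seen for 14 members in KO, 16 in KO EAE, 11 in both and 2 in WT. A ratio of at most 0.5 was seen for 3 members in WT (Fcer2a, Vpreb3 and Fcmr) and for none in KO or KO EAE.

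The widest gap was that of Ms4a1, with 21 reads in KO replicate 1 and 147 in KO replicate 2, a ratio of 8.42 (5.31 to 14.0), and 14 against 62 reads in KO EAE, a ratio of 4.43 (2.45 to 8.57). In WT it had 16 and 9 reads, a ratio of 0.551 (0.214 to 1.32), so only the WT interval included 1. In KO the next ratios were Fcrla at 7.05, Ly6d at 4.96 and Cr2 at 3.76. In KO EAE the widest were Bcl11a at 6.17, Mef2c at 5.70, Ms4a1 at 4.43 and Tnfrsf13c at 4.07, and Ralgps2 was lowest at 0.535. The 7 genes called higher in KO had ratios of 0.836 to 1.34 in KO, 1.25 to 2.13 in KO EAE and 0.551 to 1.10 in WT, and the other 25 had 0.871 to 8.42, 0.535 to 6.17 and 0.435 to 2.94. This is a description only, since the test that called the 7 weighs the gap between replicates.

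Splitting the members by their use in other cells, the 18 outside the shared list had a median ratio of 1.93 in KO and 2.12 in KO EAE, and the 14 shared with macrophages or dendritic cells 1.26 and 1.57. Markers of other cell types also differed between the replicates. On the log2 scale the median of replicate 2 over replicate 1 was 0.67 for the B cell genes in KO and 0.98 in KO EAE, against 0.25 and 0.27 for 19 macrophage and monocyte markers, 0.80 and 0.53 for 9 dendritic cell markers, 0.25 and 0.32 for 9 plasmacytoid dendritic cell genes, 1.04 and 0.83 for 3 erythroid genes, and 0.11 and -0.07 for 18 T cell identity genes. For the 22 other genes of the B cell receptor pathway it was 0.14 and -0.01. The lists other than the B cell genes had a small constant added to each CPM first, which draws ratios of scarce genes toward 1. The B cell genes had none, so the medians are not strictly the same measure. The part of those other cells in the gap was not tested.

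**Figure D3:**
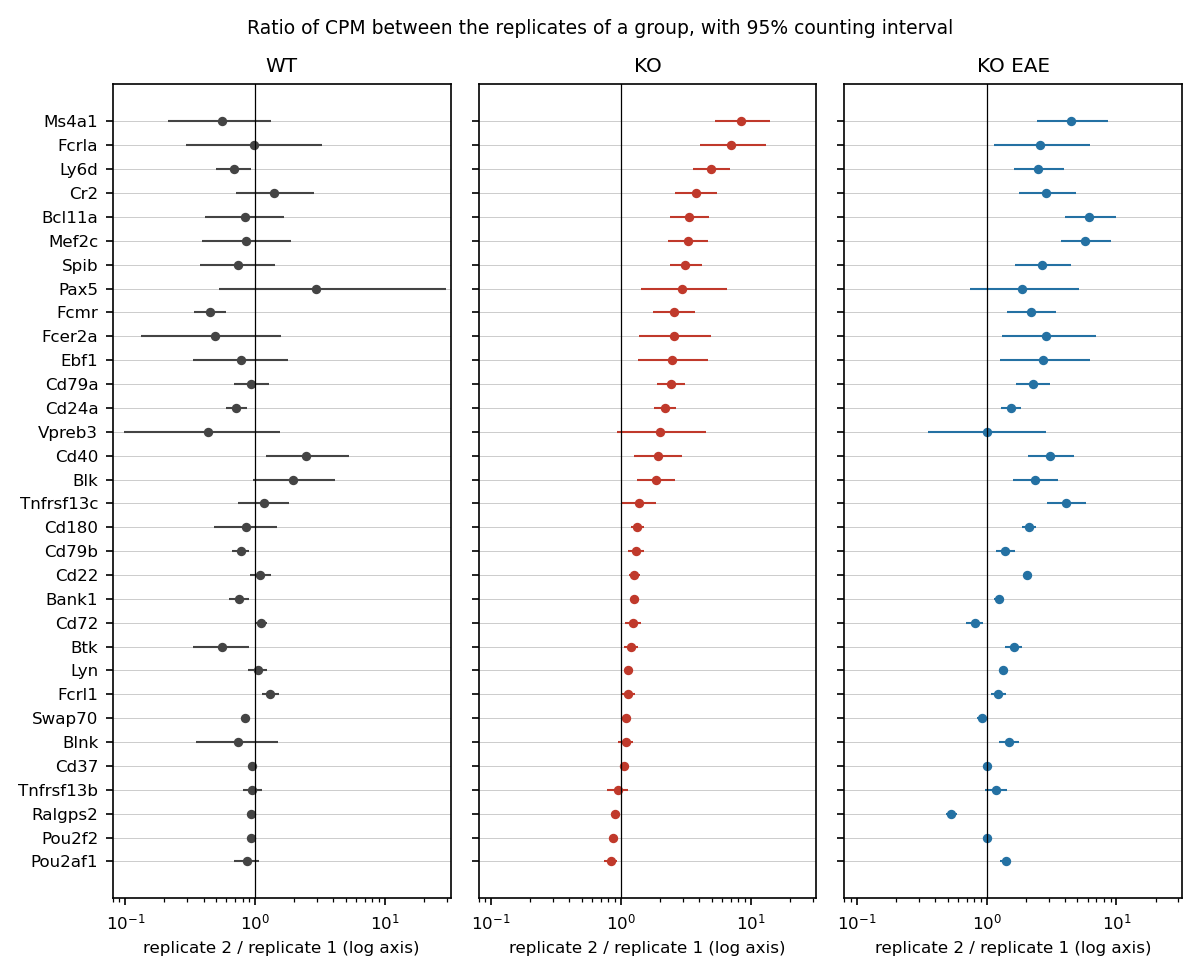
Ratio of replicate 2 to replicate 1 in CPM for each B cell gene in WT, KO and KO EAE, on a log axis with 95% counting intervals, ordered by the KO ratio. In KO and KO EAE most points lie to the right of 1, up to 8.42 for Ms4a1 in KO, while the WT median is 0.858.

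EAE was compared with steady state within the KO label. None of the 32 members was called in either direction (edgeR; DESeq2 called 0), while 0.0137% of all genes tested were called higher and 0% lower. An unadjusted p under 0.05 (edgeR) was seen for 3 of the 32 members and 1378 of all 14548 genes tested, a similar share. The 3 were Bank1 (log2 difference -0.52 ± 0.19), Blnk (-0.65 ± 0.24) and Swap70 (-0.29 ± 0.11), with adjusted p of 0.510, 0.516 and 0.522. The log2 difference was below 0 for 23 members and above 0 for 9, with a median of -0.32. That median ran from -0.85 without KO EAE replicate 2 to 0.24 without KO replicate 2, so its sign changed when that 1 KO library was left out. For Ralgps2 the log2 difference was -0.38 with all libraries and -0.90 without KO EAE replicate 1.

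KO EAE was also set against WT, a comparison in which genotype and EAE cannot be told apart and which shares its WT libraries with the one above. It called 7 members higher and 1 lower, with 7.41% of all genes called higher and 1.95% lower. The 7 were those called higher in KO: Cd180 (log2 difference 4.45), Blnk (4.02), Btk (3.26), Lyn (3.16), Cd22 (2.43), Pou2af1 (2.20) and Bank1 (1.84). The gene called lower was Swap70, at -1.14 ± 0.11 (adjusted p = 0.00219). Cd72 had a log2 difference of -0.67 and missed the threshold (adjusted p = 0.0638). The members' median was 1.24, and it was 0.30 without KO EAE replicate 2. Without KO EAE replicate 1 the members' median was 1.77. Cd22 missed the threshold without either WT library (adjusted p of 0.0655 and 0.0520).

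The normalized table, which holds 4 libraries under the WT and KO names only, gave other values for the same genes. Of the 32 members 26 passed its filter (Pax5, Ebf1, Fcrla, Fcer2a, Cr2 and Cd180 did not), and none was called (limma; 3 had an unadjusted p under 0.05, and edgeR on the whole reads recovered from the table called 0). Over all 12149 genes tested, 0.14% were called higher and 0.0412% lower, and 1621 had an unadjusted p under 0.05 (limma). The median log2 difference of the 26 was -0.15, with 11 above 0 and 15 below. Lyn stood at a normalized signal of 339 and 421 in WT and 754 and 903 in KO, a log2 difference of 1.12 ± 0.24 (adjusted p = 0.116). Cd72 stood at 990 and 816 in WT and 453 and 517 in KO (-0.89 ± 0.22, adjusted p = 0.166), and Pou2f2 at 1162 and 1423 in WT and 885 and 591 in KO (-0.83 ± 0.23, adjusted p = 0.219). In these 3 genes WT and KO libraries did not overlap. The comparison of the tables is a description, since it is not known whether they hold the same RNA.

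Genes called higher in the count table did not pass the test here. Btk stood at 85.3 and 58.2 in WT and 66.2 and 82.4 in KO, and Bank1 at 362 and 353 in WT and 337 and 320 in KO. Cd22 stood at 442 and 755 in WT and 719 and 495 in KO, and Pou2af1 at 358 and 268 in WT and 370 and 201 in KO. The log2 differences of Bank1 (-0.12 ± 0.26) and Pou2af1 (-0.18 ± 0.37) were below 0 in this table. Blnk stood at 5.09 and 92.7 in WT and 115 and 97.0 in KO, so WT replicate 2 was close to the KO libraries. Cd180 was listed at 0 in WT replicate 1, and at 15.1 in WT replicate 2 and 0.827 and 15.5 in KO. Replicates were ordered the other way too: in KO, 24 of 32 members were higher in replicate 1 and 7 in replicate 2. In WT 21 were higher in replicate 2. A 0 was listed in at least 1 library for 5 members in KO and 9 in WT. The order of all genes was not counted for the normalized values, so this is a description only. Ms4a1 was listed at 0 in WT replicate 1, and stood at 54.9 in WT replicate 2 and at 29.8 and 18.9 in KO.

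The authors' deposited table of KO against WT gave an adjusted p for 10396 genes and called 1.71% of them higher and 1.64% lower at 0.05. In the authors' deposited table Lyn was higher (log2 fold change 0.78, adjusted p = 0.00758), Cd72 lower (-0.65, adjusted p = 0.0336), and Pou2f2 just outside the threshold (-0.60, adjusted p = 0.0561). The authors' deposited table had Cd22 at 0.01, Btk at 0.01, Blnk at 0.17, Bank1 at -0.07 and Pou2af1 at -0.07, none of them called. For Blnk, limma on the normalized signal gave a log2 difference of 2.05 ± 1.12 (limma adjusted p = 0.460). On the recovered reads edgeR gave 1.11 ± 1.09 for Blnk. The sizes of the authors' fold changes are thus not comparable with the differences given above, and how they were estimated is not known here.

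**Figure D4:**
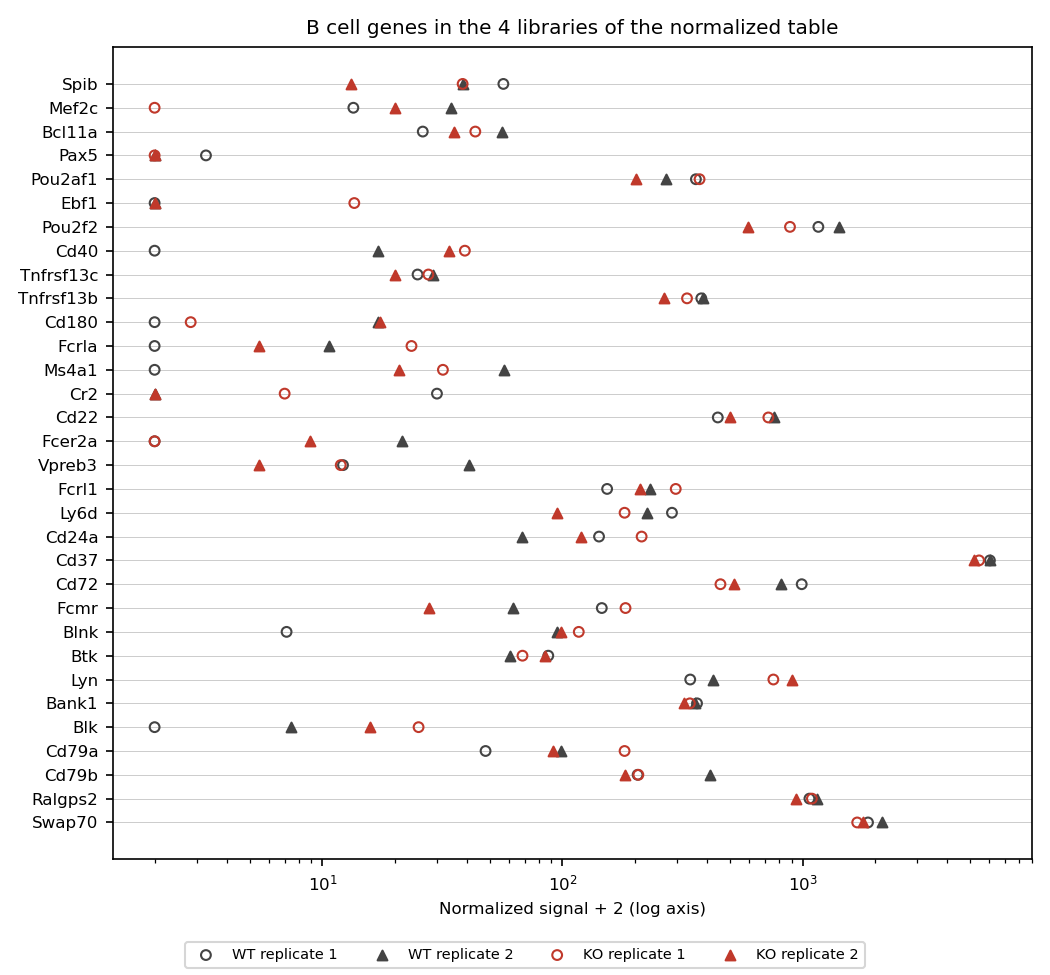
Normalized signal plus 2 of each B cell gene in the 4 libraries of the normalized table, on a log axis, with genes in the order of the plot of CPM by role; points at 2 are listed at 0. Lyn lies higher in both KO libraries and Cd72 lower, while Btk, Cd22 and Pou2af1 overlap between WT and KO.

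Beyond the set, 22 other genes of the B cell receptor pathway were measured in the count table. Of these, 5 were called higher in KO and none lower, against 9.41% and 3.46% of all genes tested. Their median log2 difference was 0.12. They were not split by use in macrophages or dendritic cells, many of whose markers were also called higher, and the part of those cells was not tested. Those 5 were Pirb, an inhibitory receptor (4.76), Plcg2, the phospholipase of the pathway (3.69), Syk, the kinase that docks on CD79 (3.55), Pik3ap1, an adaptor for phosphoinositide 3-kinase (3.31), and Cd81, a tetraspanin of lymphocytes (0.48).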

How the data were processed

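The labels name sorted regulatory T cells, a column RNA kit and the NEBNext Ultra II RNA kit on a NextSeq500, with no molecular identifiers, so intervals and floors cover counting error only. HISAT2, HTSeq, DESeq2 and mm10 are named in the submitters' processing notes. The authors deposited unscaled read counts, 1 whole number per gene in each of 6 libraries. They also deposited a normalized signal per gene for the 4 WT and KO libraries, counts divided by a size factor (16884434 to 25335011 reads per library). Of the values above 0, 100% were whole reads within a tolerance. That tolerance was 0.02 reads for low values and widened in proportion for high ones, so it tests the highest genes little. Their table of KO against WT holds, per the file headers, adjusted and unadjusted p-values beside a log2 fold change and a test score. The tables were analysed separately, since values differ under the same library names.

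Entries that name no gene were left out, 25 among counts and 27 among normalized values (at most 0.284% of reads). The count test was that of edgeR 4.0.16 under R 4.3.3 (filterByExpr with minimum count 10 and minimum total 15, TMM, quasi-likelihood F test), all 6 libraries in 1 fit with 1 coefficient per group and 3 residual degrees of freedom. The biological coefficient of variation was 0.178. SE of an edgeR log2 difference is its size over the square root of F. The normalized signal was tested with limma 3.58.1 on log2(signal + 2) for genes with a mean of at least 10, a scale that understates changes of low genes. On the recovered reads edgeR called 12 genes of all tested. All p-values were Benjamini-Hochberg adjusted over every gene tested. Alternatives were DESeq2 1.42.0, other scalings, no filter, other pseudocounts, a replicate block and leaving out each library. Gene positions and exon lengths came from GENCODE M21 (mm10).

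The members, their roles and the other gene lists were chosen with earlier results of these data known. Values in every library are given for each member that was called or had a group mean of at least 5 CPM, and for most others, and from each other list genes were named by call and level. Antibody constant genes were not analysed here. Of the other B cell receptor pathway list, 1 gene is not reported here.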

Additional observations from a re-analysis of the deposited data

How the results depend on the processing

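Counts of called members that moved by over 1.5 times were, for KO against WT (9), 17 with DESeq2 and 14 when only those 2 groups were fitted. Calls over all genes moved too, from 1873 to 2425 with DESeq2 and to 3121 with only those 2 groups. Leaving out each library gave 7 each time. For KO EAE against KO (0) the range over left-out libraries was 0 to 1, and for KO EAE against WT (8) it was 7 to 15, the 15 without KO EAE replicate 1. Without KO EAE replicate 1, calls over all genes also rose in both of these comparisons, so the rises do not set the members apart. With a lone library left in a group, its spread is assumed to equal that of the others. The members' median log2 difference ranged over left-out libraries from 0.77 to 1.73 for KO against WT, from -0.85 to 0.24 for KO EAE against KO, and from 0.30 to 1.77 for KO EAE against WT. In normalized values 0 members were called under all 10 alternatives, with left-out medians of -0.25 to -0.02. Scaling and a minimum of 20 reads left the median of replicate 2 over replicate 1 at -0.22 to -0.19 (log2) in WT, 0.61 to 0.67 in KO and 0.98 to 1.04 in KO EAE. Within the count table no alternative reversed a called member, whereas in the normalized table Bank1 (-0.12) and Pou2af1 (-0.18) were below 0. The causes were not tested. Depth limits Pax5, Ebf1, Fcer2a and Vpreb3 most.

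Whether replicate numbers pair the libraries is not known, and a correlation across genes cannot settle it. The correlation across 14548 genes of the replicate 2 minus replicate 1 log2 differences was 0.02 for WT with KO, -0.14 for WT with KO EAE and 0.21 for KO with KO EAE. Over the 32 members alone it was -0.13, 0.06 and 0.65 in that order, as a description. With the replicate block 11 members were called in KO against WT (Pax5, Blk and Fcrl1 added, with adjusted p of 0.0477, 0.0187 and 0.0341, and Cd72 lost at 0.0718), 10 in KO EAE against WT (Blk and Cd40 added, 0.0395 and 0.0470), and 0 in KO EAE against KO and in the normalized table.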

Other observations

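Plasma cell and other B lineage genes outside the set were uneven in the count table. Jchain, which joins antibody multimers, was at 3.13 and 19.2 CPM in WT, 36.7 and 68.8 in KO, and 37.2 and 66.7 in KO EAE (KO minus WT log2 difference 2.23 ± 0.77, edgeR adjusted p = 0.120). Sdc1, which encodes the plasma cell marker CD138, was at 1.94 and 1.65 CPM in WT, 3.97 and 6.14 in KO, and 4.69 and 6.43 in KO EAE, and was the 1 of 8 plasma cell genes tested that was called higher (1.49 ± 0.36, adjusted p = 0.0471). Fcgr2b, the inhibitory IgG receptor of B cells and myeloid cells, was at 0.438 and 0.735 CPM in WT, 1.70 and 23.3 in KO, and 7.0 and 23.5 in KO EAE (4.38 ± 1.38, adjusted p = 0.0967).

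Among marginal zone genes S1pr3 was called higher in KO (3.36, adjusted p = 0.00727) and among B cell precursor genes Cd93 (2.51, adjusted p = 0.0303), each 1 of the list, of 5 and 4 genes tested. No other gene of either list was called, and the list medians were 0.11 and -0.0043. Over all genes tested, 9.41% were called higher. The precursor genes Vpreb1 and Dntt were at 0.643 to 1.16 and 4.82 to 9.21 CPM over all libraries. Siglech, a plasmacytoid dendritic cell gene, was at 0.313 and 0.551 CPM in WT, 3.35 and 22.5 in KO, and 0.385 and 2.70 in KO EAE. In NK genes 5 of 8 tested were called higher in KO, in erythroid genes 3 of 3, in plasmacytoid dendritic genes 3 of 9 and in stromal genes 3 of 8, while all 8 regulatory T cell genes were called lower. The globin genes Hbb-bs, Hba-a1 and Hba-a2 had 0 reads in every library of the count table, while Hbb-bs stood at 56.0 and 163 in WT and 720 and 149 in KO in the normalized table. Jchain, Fcgr2b, Siglech, Vpreb1, Dntt and the globin genes were named after their values were seen.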
